A study of Mus musculus with 5 samples.

Results

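GABA-A receptors are chloride channels opened by GABA, the main inhibitory transmitter of the adult brain. The genes described here encode 7 listed non-alpha subunits: beta-1 and beta-2 (Gabrb1, Gabrb2), gamma-1 and gamma-3 (Gabrg1, Gabrg3), delta (Gabrd), epsilon (Gabre) and theta (Gabrq). They were taken by symbol from a count table of 47729 mouse genes, and all 7 were found and passed the filter on low counts. Other beta and gamma subunit genes are not analysed here. The tissue was brain, the right hemisphere, from C57BL/6 males (a standard inbred strain) aged 5 months, in 5 libraries. The labels name no treatment, mutation or transgene and put all 5 in 1 group, so genes were compared within a brain and brains with each other. Whether every library came from its own mouse is not stated. The libraries are numbered as animals 1 to 5, and a p-value covers the spread between them, some of which may be technical.

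Each receptor is a ring of subunits around a pore, usually alpha and beta subunits with a gamma or a delta subunit. Beta subunits form the GABA binding site together with alpha subunits. As a class, gamma subunits help to anchor receptors at synapses and take part in the benzodiazepine site. How far this holds for gamma-1 and gamma-3 was not examined here. Delta replaces gamma in receptors outside synapses that respond to ambient GABA and to neurosteroids. Epsilon and theta are rarer subunits, best known from the hypothalamus and from monoamine cell groups of the brainstem.

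The coding sequences of the 7 genes were set side by side because all levels below rest on telling the genes apart. Identity between aligned coding bases was highest for Gabrb1 and Gabrb2 (70.7%) and for Gabrg1 and Gabrg3 (65.3%). Gabrq was nearest to Gabrb2 (55.1%) and Gabre to Gabrg3 (54.6%), while Gabre and Gabrq, which lie on the same chromosome, shared 44.4%. The 48 bases that are most alike in all 7 lie in exon 7 of each gene. They are shown from the GENCODE transcripts of GRCm38, 5′ to 3′ on the coding strand, with the 24 bases that are identical in every member in capitals.
Gabrb2: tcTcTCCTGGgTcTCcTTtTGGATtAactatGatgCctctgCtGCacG
Gabrb1: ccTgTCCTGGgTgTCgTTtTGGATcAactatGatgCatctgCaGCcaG
Gabrg1: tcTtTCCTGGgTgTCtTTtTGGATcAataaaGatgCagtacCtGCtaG
Gabrg3: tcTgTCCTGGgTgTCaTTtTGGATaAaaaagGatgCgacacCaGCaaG
Gabrd: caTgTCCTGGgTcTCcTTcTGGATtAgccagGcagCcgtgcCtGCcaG
Gabre: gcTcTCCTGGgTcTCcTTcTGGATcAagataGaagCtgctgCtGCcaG
Gabrq: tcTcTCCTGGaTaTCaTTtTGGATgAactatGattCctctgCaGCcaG
The stretch lies at chr11:42593891-42593938 in Gabrb2 (plus strand), chr5:72108778-72108825 in Gabrb1 (plus strand) and chr5:70777129-70777176 in Gabrg1 (minus strand). It lies at chr7:56734958-56735005 in Gabrg3, chr4:155386414-155386461 in Gabrd and chrX:72258425-72258472 in Gabre, all on the minus strand, and at chrX:72836250-72836297 in Gabrq on the plus strand. Even there the members differ at 24 of 48 bases. No run of 50 bases from the transcripts of Gabrb1, Gabrb2, Gabrg1, Gabrg3, Gabrd or Gabrq occurs in transcripts of another annotated gene, and of the 4755 such runs in Gabre 14 do (0.294%).

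On GRCm38, 6 of the 7 members lie beside an alpha subunit gene. Gabrb1 (ENSMUSG00000029212, chr5:71658113-72149037) runs head to head with Gabra4, and the 2 genes overlap by 196 bases at their starts, 46 of them within exons of both, which is 0.332% of the exon bases of Gabrb1. The strand setting of the counting is not given, so reads from those bases cannot be assigned to either gene. Gabrg1 (ENSMUSG00000001260, chr5:70751047-70842617) lies 114979 bases from Gabra2. Gabrb2 (ENSMUSG00000007653, chr11:42419757-42629028) lies 98684 bases from Gabra6, and Gabrg3 (ENSMUSG00000055026, chr7:56716465-57387188), whose span of 670724 bases is the longest of the 7, lies 20483 bases from Gabra5. On the X chromosome Gabra3 stands between Gabre (ENSMUSG00000031340, chrX:72255999-72274803), at 157877 bases, and Gabrq (ENSMUSG00000031344, chrX:72825178-72842602), at 168329 bases. Gabrd (ENSMUSG00000029054, chr4:155384980-155398112) spans 13133 bases and has no alpha neighbour among those listed.

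Depth ran from 13184234 to 15570064 counts per library. Levels are given in RPKM, reads scaled to exon length and to the library's total, recomputed from the counts, since 80% of the entries of the deposited RPKM table had been divided by another library's total. Errors after ± are SDs between animals, with n = 5. Summed markers of all neurons (Snap25, Syt1, Rbfox3, Tubb3 and Stmn2) ranged 1.06-fold between animals, a sum led by Snap25 (mean 369 RPKM). Taken singly on scaled counts, Rbfox3 ranged 1.23-fold, from 49.2 RPKM in animal 1 to 40.9 in animal 2, and the others 1.06-fold to 1.12-fold. In animal 4 cerebellar and brainstem markers stood apart: Gabra6, a subunit of cerebellar granule cells, had 64 counts there against 0 or 1 in the other animals, and the 5 brainstem markers summed to 7.59 RPKM against 1.16 to 3.30. Summed oligodendrocyte markers were highest there too (927 RPKM against 748 to 784).

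The 3 most abundant members were Gabrb2, Gabrd and Gabrb1, with 32.8%, 31.2% and 22.4% of the summed level of the 7. Gabrb2 averaged 25.6 ± 1.36 RPKM, Gabrd 24.4 ± 2.92 and Gabrb1 17.5 ± 0.912. Gabrg1 (3.96 ± 0.335) and Gabrg3 (3.92 ± 0.243) followed at nearly equal levels. Gabrq averaged 2.01 ± 0.793 and Gabre 0.696 ± 0.291. The 7 together summed to 78.0 ± 3.01 RPKM, of which the 2 beta genes gave 43.0 ± 0.986, the delta gene 24.4 ± 2.92, the 2 gamma genes 7.88 ± 0.448 and the epsilon and theta genes 2.71 ± 1.05. Gabrb2 lay above 92.9% of the genes with any count, and Gabre above 50.2%.

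**Figure D1:**
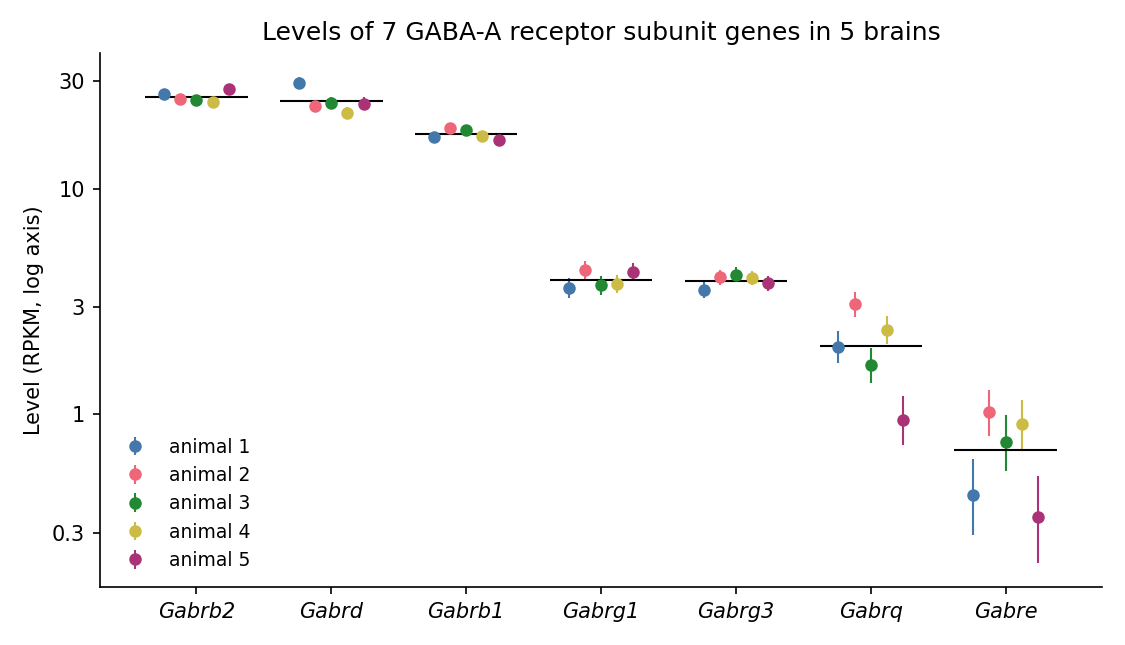
Level of each subunit gene in RPKM on a log axis, 1 point per animal with its 95% exact Poisson interval (counting error only) and a line at the mean. Gabrb2, Gabrd and Gabrb1 lie between 16.4 and 29.4 RPKM, Gabrg1 and Gabrg3 between 3.55 and 4.37, and Gabrq and Gabre below them with the widest spread.

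The order of the levels was tested within each animal as the log2 ratio of RPKM plus 0.1. Of the 21 pairs of members, 19 had the same order in all 5 animals. For each of them the sign-flip test (exact, two-sided) gave p = 0.062, which is the minimum with 5 animals (0.0691 adjusted over the 21 pairs), so no pair can pass 0.05. The 2 exceptions were neighbours in the order. Gabrb2 exceeded Gabrd in 4 of 5 animals (log2 ratio 0.072 ± 0.15, exact p = 0.312), with the opposite order in animal 1. Gabrg1 exceeded Gabrg3 in 3 of 5 animals (0.013 ± 0.13, exact p = 0.812). Among the other neighbours, Gabrd exceeded Gabrb1 by 1.39-fold (0.47 ± 0.20), Gabrg3 exceeded Gabrq by 2.03-fold (1.02 ± 0.58) and Gabrq exceeded Gabre by 2.64-fold (from 1.03 to 1.95 on the log2 scale). The levels of Gabrq and Gabre overlapped across animals, although Gabrq was the higher within each.

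Both beta genes had ranges between brains below the median of all genes tested (1.19-fold), a median that covers genes of every abundance. Against genes of like abundance, by the test described below, neither was steadier than the trend. Their variability was 1.57 times the trend for Gabrb2 and 1.41 times for Gabrb1, and neither was called. Gabrb2, a beta subunit of many synaptic receptors, had 26.3, 25.004, 24.6, 24.3 and 27.6 RPKM in animals 1 to 5. It was highest in animal 5 and lowest in animal 4, a range of 1.14-fold on scaled counts. Gabrb1, the other listed beta subunit, had 17.0, 18.6, 18.2, 17.2 and 16.4 RPKM. Here animal 2 was highest and animal 5 lowest (1.12-fold), and no value of Gabrb1 reached the lowest of Gabrb2. Its exons add up to 13838 bases, of which 12231 follow the coding sequence in the longest transcript, so per counted read the order turned: Gabrb1 had a mean of 3451 counts and Gabrb2 2309.

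Both gamma genes stood well below the beta genes. Gabrg1, a gamma subunit of limited regional distribution, had 3.65, 4.37, 3.73, 3.78 and 4.27 RPKM in animals 1 to 5. Gabrg3, another minor gamma subunit, had 3.55, 4.05, 4.17, 4.01 and 3.81. The ranges of both genes overlapped, and both were lowest in animal 1. Gabrb1 exceeded both in all 5 animals, by a mean of 4.34-fold over Gabrg1 (log2 ratios from 1.92 to 2.26) and 4.38-fold over Gabrg3 (from 2.07 to 2.22).

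Gabrd, which encodes the delta subunit of dentate, thalamic and cerebellar granule cell receptors outside synapses, was highest in animal 1. It had 29.4 RPKM there and 23.3, 23.9, 21.6 and 23.8 RPKM in animals 2 to 5. The 95% Poisson interval of animal 1 (27.7 to 31.1) lay above that of every other animal, the highest of which reached 25.5. Summed striatal markers were also highest in animal 1 (328 RPKM against 264 to 292, with 4 of the 5 markers highest there), and 4 of the 6 cortical markers had their highest value there, although their sum was highest in animal 5 (507 RPKM against 481 in animal 1). The 5 dentate granule markers summed to 19.5 to 21.2 RPKM and were lowest in animal 1. The 6 thalamic markers summed to 57.8 RPKM in animal 1, with 3 of the 6 highest there. Their sum was almost the same in animals 2 and 4 (57.6 in each) and lowest in animal 3 (54.0). The part of these lists in the level of Gabrd was not tested.

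Gabrq and Gabre, the theta and epsilon genes, differed most between the brains. Gabrq had 1.997, 3.08, 1.66, 2.38 and 0.950 RPKM in animals 1 to 5, from 143, 245, 126, 198 and 67 counts. Animal 2 was highest and animal 5 lowest, and the Poisson interval of animal 5 (0.736 to 1.21) stayed below that of all other animals. Gabre had 0.442, 1.02, 0.758, 0.909 and 0.352 RPKM, from 28, 72, 51, 67 and 22 counts. It too was highest in animal 2 and lowest in animal 5, but unlike Gabrq it was low in animal 1, whose interval (0.294 to 0.638) overlapped that of animal 5 (0.221 to 0.533). In these bulk libraries fewer cells of a type and less RNA per cell cannot be told apart.

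**Figure D2:**
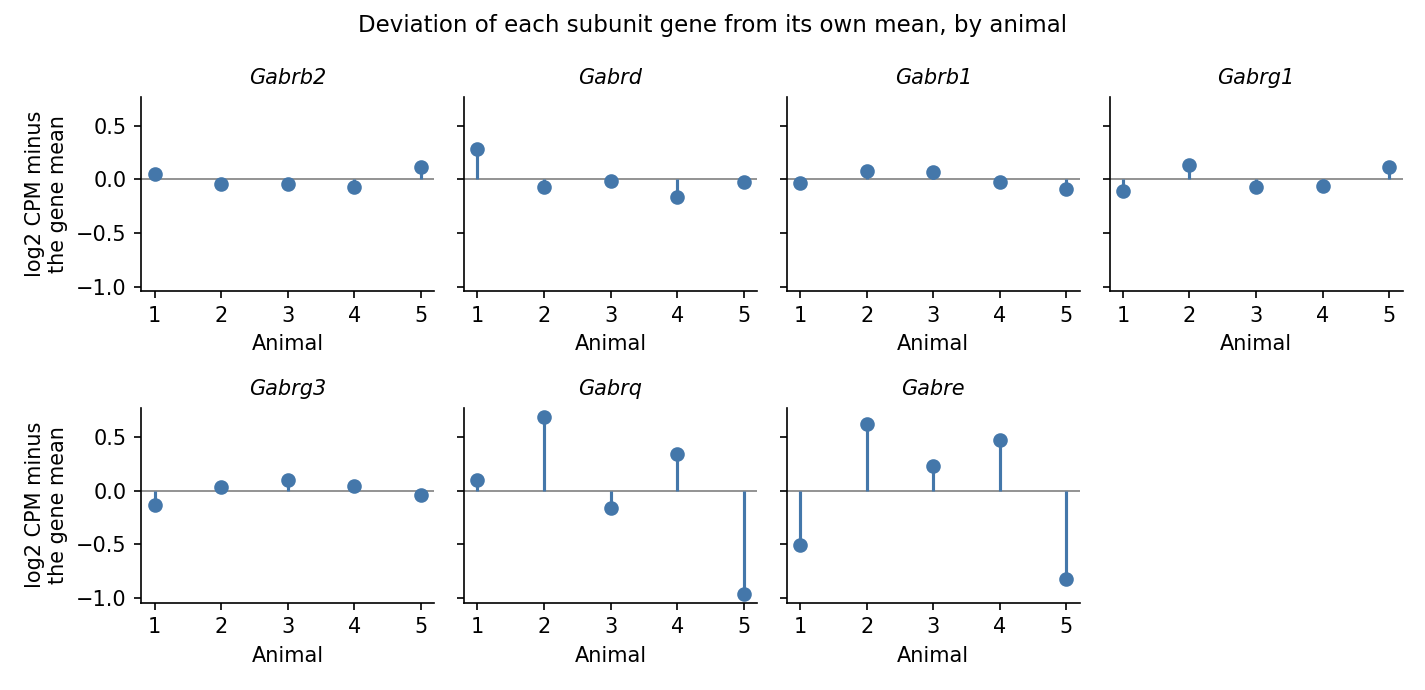
Deviation of each gene from its own mean in log2 CPM (counts scaled to library size with TMM factors) in animals 1 to 5. Deviations lie between -0.17 and 0.28 for Gabrb2, Gabrd, Gabrb1, Gabrg1 and Gabrg3, while Gabrq runs from -0.96 in animal 5 to 0.69 in animal 2 and Gabre from -0.82 to 0.62 in the same animals.

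Spread between animals was tested against the spread of genes of like abundance, with edgeR's quasi-likelihood dispersion divided by its abundance trend. Over all 14770 genes tested, 45 varied more than the trend at an adjusted p of 0.05, which is 0.305% called, and 802 at an unadjusted p of 0.05 (5.43%). Of the 7 members, 1 was called, Gabrq, and 3 had an unadjusted p under 0.05 (Gabrq, Gabre and Gabrd). The quasi-dispersion of Gabrq was 17.5 times the trend (log2 ratio 4.13, edgeR adjusted p = 0.0109), and its scaled counts ranged 3.14-fold, wider than in 99.9% of the genes tested. Gabre, with a mean of 48 counts, stood at 6.79 times the trend with a range of 2.72-fold and missed the threshold (edgeR adjusted p = 0.266). Gabrd stood at 5.65 times the trend with a range of 1.36-fold (edgeR adjusted p = 0.408), and without animal 1 its range was 1.11-fold. Gabrb1, Gabrb2, Gabrg1 and Gabrg3 lay at 1.18 to 1.57 times the trend, with ranges of 1.12-fold to 1.18-fold against a median of 1.19-fold over all genes. The median log2 ratio to the trend was 0.65 over the 7 members and -0.19 over all genes tested. By the same edgeR test 0 genes were less variable than the trend after adjustment (739 unadjusted, and 0 with limma), and 0 members were so even unadjusted.

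**Figure D3:**
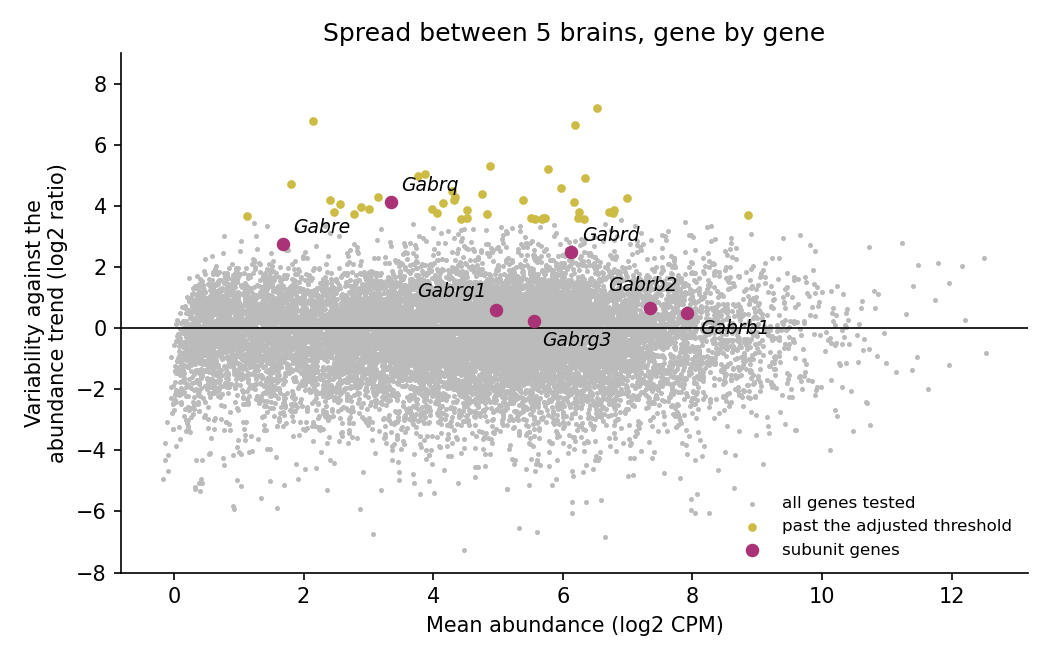
Variability against the abundance trend (log2 ratio of the quasi-dispersion to its trend) over mean abundance (log2 CPM) for all genes tested, with the 45 genes past the adjusted threshold and the 7 subunit genes marked. Gabrq is among the called genes at a log2 ratio of 4.13, Gabre (2.76) and Gabrd (2.50) are not, and the other 4 lie between 0.23 and 0.65.

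The call of Gabrq rested on the 2 animals at the ends of its range. Without animal 5 its range was 1.81-fold (edgeR adjusted p = 0.263) and without animal 2 it was 2.46-fold (adjusted p = 0.0616), while without animal 1, 3 or 4 the adjusted p lay between 0.00452 and 0.0113. With limma on log2 RPKM the adjusted p was 0.534, and DESeq2 marked Gabrq as a dispersion outlier. Chi-square per degree of freedom over the 5 libraries, near 1 for counting noise alone, was 23.2 for Gabrq, 14.1 for Gabrd, 9.26 for Gabrb1, 7.89 for Gabre, 6.44 for Gabrb2, 3.16 for Gabrg1 and 2.46 for Gabrg3. The median over all genes tested was 1.59. This value grows with the count for a given spread, so it does not order the members by spread.

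The summed markers of the cell groups in which theta and epsilon are best known were, like both genes, at their maximum in animal 2 and their minimum in animal 5. The 13 hypothalamic peptide neuron markers measured, of 14 listed, summed to 137 RPKM in animal 2 and 71.8 in animal 5, and to 101 to 114 in the others. Of these 13, 8 peaked in animal 2, and 9 had their lowest level in animal 5. The 9 monoamine neuron markers summed to 24.9, 37.3, 31.9, 35.8 and 23.7 RPKM in animals 1 to 5, which ranked the animals as Gabre did. Of these 9, 5 peaked in animal 2 and 7 had their lowest level in animal 5. The other 4 peaked in animal 4. Among these were Maoa, the largest term of the sum (10.4 RPKM against 9.56 in animal 2), and Slc6a3 (5.71 against 5.64). The markers of noradrenaline cells did not peak in animal 2 either. Slc6a2, the noradrenaline transporter, had 0.169, 0.0435, 0.0570, 0.530 and 0 RPKM in animals 1 to 5. Dbh, the enzyme that makes noradrenaline, had 0.278, 0.1997, 0.288, 1.03 and 0.197. Both were highest in animal 4. Tph2, the enzyme of serotonin synthesis, had 0.389, 3.27, 1.74, 1.47 and 0.606 RPKM in animals 1 to 5. Of the 12 hypothalamic markers tested 4 were called for variability by edgeR (Oxt, Avp, Irs4 and Baiap3), and of the 6 monoamine markers 1 (Tph2). The long nuclear RNA markers, a sign of library composition, were also highest in animal 2 (218 RPKM against 179 to 214), with animal 5 next at 214. Red blood cell markers, all 5 called for variability, were lowest in animal 5 (62.2 RPKM) and highest in animal 3 (236 RPKM). A minimum in animal 5 was not particular to these lists. Summed brainstem (1.16 RPKM), cerebellar granule (40.2), astrocyte (760) and oligodendrocyte (748) markers were also lowest in animal 5, but highest in animal 4. Of the cerebellar list, Gabra6 had 0 RPKM and Cbln3 0.0964 in animal 5, so that sum came almost wholly from the other markers. The part of any of these lists in the levels of Gabrq and Gabre was not tested. The lists were chosen with earlier results of these data known, so a shared maximum or minimum may come in part from that choice.

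**Figure D4:**
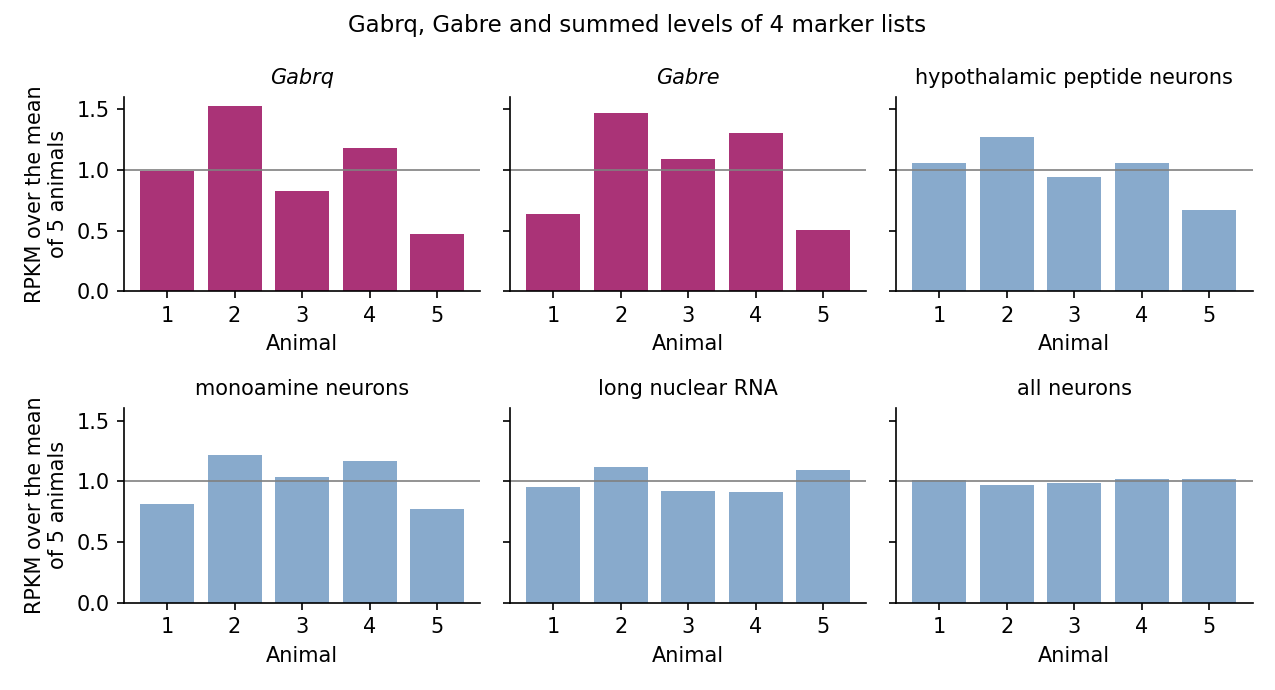
Level in each animal divided by the mean of the 5 animals, for Gabrq, for Gabre and for the summed RPKM of 4 marker lists. Gabrq, Gabre and the hypothalamic and monoamine lists are each highest in animal 2 and lowest in animal 5, whereas the summed neuronal markers ranged 1.06-fold.

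By the distance between log2 deviations over the 5 libraries, the genes most like Gabrq were Calcr, Fignl2, Kif15, Arhgap36 and Rph3al, with root mean square differences of 0.16, 0.18, 0.19, 0.22 and 0.23. The median over all genes tested was 0.56. Calcr, the calcitonin receptor, had 0.535, 0.876, 0.612, 0.722 and 0.252 RPKM in animals 1 to 5, from 13 to 51 counts. Arhgap36, on the X chromosome as Gabrq is, had 2.34, 3.95, 2.78, 3.06 and 1.62 RPKM. Being chosen for their likeness over these same libraries, they share the maximum in animal 2 and the minimum in animal 5 by selection, and none of the 5 was called for variability (edgeR adjusted p from 0.110 to 0.995). Among the members Gabre was the nearest to Gabrq (0.34), at rank 81 of all genes.

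The 250 bases before and 50 after the start of Gabrq and Gabre are shown because these 2 members, both on the X chromosome, had the widest spread. They are from RefSeq on GRCm38.p6, 5′ to 3′ on the strand of each gene, at chrX:72824928-72825227 (plus strand) for Gabrq and chrX:72274672-72274971 (minus strand) for Gabre, with CG dinucleotides in capitals.
Gabrq: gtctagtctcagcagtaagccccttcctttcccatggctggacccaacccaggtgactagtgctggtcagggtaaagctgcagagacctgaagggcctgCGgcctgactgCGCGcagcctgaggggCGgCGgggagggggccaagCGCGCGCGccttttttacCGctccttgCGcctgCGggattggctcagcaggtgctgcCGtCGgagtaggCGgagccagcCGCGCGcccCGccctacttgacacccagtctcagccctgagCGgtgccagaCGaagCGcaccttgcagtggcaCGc
Gabre: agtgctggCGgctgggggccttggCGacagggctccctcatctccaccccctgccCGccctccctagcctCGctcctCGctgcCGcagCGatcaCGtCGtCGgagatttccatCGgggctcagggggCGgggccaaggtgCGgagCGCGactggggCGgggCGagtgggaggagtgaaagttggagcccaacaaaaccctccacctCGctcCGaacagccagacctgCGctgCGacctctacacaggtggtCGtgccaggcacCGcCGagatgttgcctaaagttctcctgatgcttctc
Gabrq has 23 CG dinucleotides in this window and Gabre 24, more than 78.5% and 80.0% of the 32851 promoters of the same length, whose median is 7. Gabrg1 has 3 and Gabrg3 13, and the annotated promoters of Gabrb1 have 25 and 9. TATAAA, searched on both strands, is in 13.6% of all these promoters and in 1 of those of Gabrb2, and was not found in those of Gabrb1, Gabrg1, Gabrg3, Gabre and Gabrq. No promoter of Gabrd was matched.

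Members were also set against alpha subunits that they assemble with or lie next to in the genome. In the 7 pairs reported here the order was the same in all 5 animals (exact sign-flip p = 0.062 in each, two-sided, also after adjustment over the 8 pairs tested). Gabrd exceeded Gabra4, its partner in forebrain receptors outside synapses, by 1.22-fold (log2 ratio 0.29 ± 0.14), with Gabra4 at 19.9 ± 1.32 RPKM. Gabra6, its partner in cerebellar granule cells, had 1, 1, 0, 64 and 0 counts in animals 1 to 5, that is at most 0.0914 RPKM allowed by 3 counts in any library with 0, and 1.65 RPKM in animal 4. Gabrd was lowest in animal 4, where cerebellar granule markers were highest (54.0 RPKM summed against 40.2 to 46.0, with 7 of 8 highest there). The sum hides how far single markers differed. Like Gabra6, Cbln3 was low outside animal 4 (0.0596 to 0.142 RPKM against 0.993 in animal 4). The sums in animals 1, 2, 3 and 5 thus came almost wholly from other markers of the list. By mean level the largest were Grin2c (11.6 RPKM), Zic1 (9.68) and Cbln1 (9.38). Outside animal 4 the sum therefore cannot be read as a measure of granule cells. The part of these cells in the level of Gabrd was not tested. Gabrb1 stood 1.38-fold below Gabra2 (log2 ratio -0.46 ± 0.16). Gabrg1 stood 5.97-fold below Gabra2 and Gabrg3 5.18-fold below Gabra5. On the X chromosome Gabre stood 53.5-fold and Gabrq 20.3-fold below Gabra3, the gene between them, which had 40.1 ± 2.46 RPKM. Gabra3 ranged 1.15-fold between animals (edgeR adjusted p = 0.995), against 2.72-fold for Gabre and 3.14-fold for Gabrq.

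**Figure D5:**
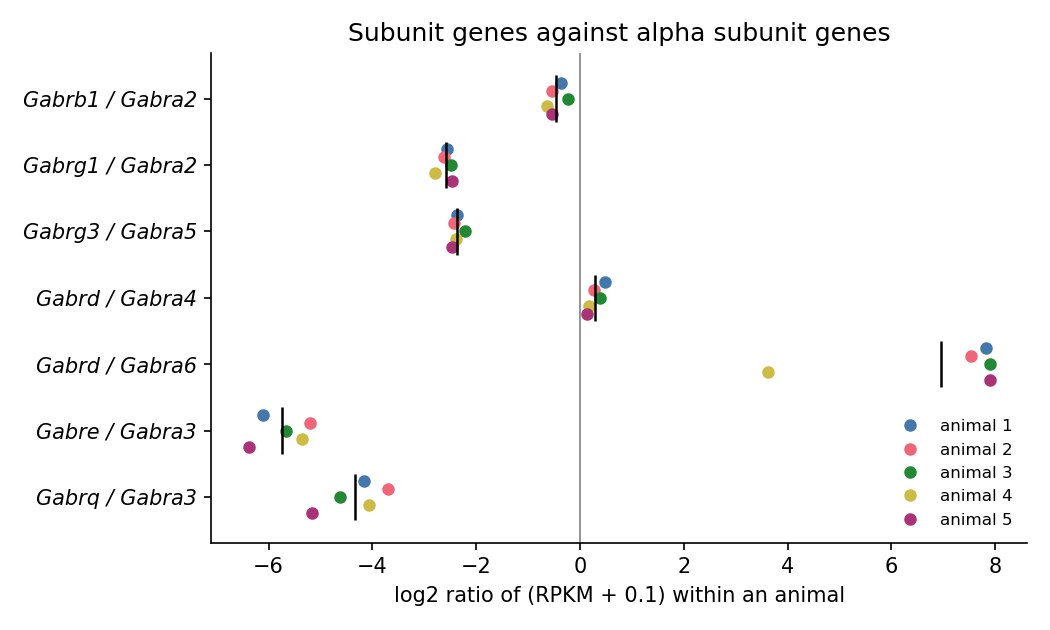
Log2 ratio of (RPKM + 0.1) of 6 subunit genes over an alpha subunit gene within an animal, 1 point per animal with a line at the mean. Gabrd lies above Gabra4 in every animal, the 5 pairs of the other members lie below 0, and for Gabrd over Gabra6, where Gabra6 had 0 or 1 counts outside animal 4, the ratio depends on the value added to each RPKM.

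In 3 other lists of genes of GABA transmission calls were set against the same background, 0.305% called after adjustment and 5.43% unadjusted, at which lists of this size hold few or no calls. Of the 10 other subunit genes listed, 6 were tested and 0 were called by edgeR (1 unadjusted, Gabra2 at 1.26-fold, and 0 by DESeq2 and limma). Of 22 genes of receptor scaffolding and trafficking, all were tested and 0 called by edgeR (1 unadjusted, with 1 by DESeq2 and 0 by limma), in both cases Hap1, a huntingtin partner that returns receptors to the surface, with 78.7 RPKM in animal 2 and 55.9 in animal 5. Gabarapl1, which binds receptor subunits and autophagy receptors, was the highest there at 302 ± 5.85 RPKM. Of 12 genes of GABA supply, chloride balance and GABA-B receptors, 0 were called (1 unadjusted, Slc6a11, a GABA transporter of astrocytes, and 0 by DESeq2 and limma), and Gabbr1 was the highest at 125 ± 2.22. The median log2 ratio to the trend was 0.92 over the 6 subunit genes, -0.13 over the scaffold list and -0.74 over the supply list, against -0.19 over all genes tested. With no low-count filter edgeR called Gabra2 and Gabra6 (2 of 9 tested), Hap1 (1 of 22) and Slc6a11 (1 of 12), in a fit that called 249 genes in all. That fit started from the 28276 genes with any count, and how many of them were tested is not given. The 0.305% belongs to the filtered fit, so these calls have no background share beside them and are not read as a result about the lists. Gabra2, Hap1 and Slc6a11 were named after their values were seen.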

How the data were processed

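The 5 libraries from right hemispheres of mouse brain were made with an mRNA kit, as the labels' protocols state. The submitters' processing notes name GRCm38, STAR 2.4.1d, featureCounts 1.4.6-p4 and CASAVA 1.7. No source used here gives the annotation release, the strand setting or how reads with several matches were handled. The deposited counts are whole numbers per Ensembl gene, not normalized. The RPKM values deposited by the authors follow from these counts: dividing by the 5 library totals one after the other down the table recovered 99.999% of 117232 nonzero values (within 0.0011 RPKM plus a relative 0.0002), whereas each library's own total recovered 21.2%. RPKM was therefore recomputed with own totals and with gene lengths derived from both tables, whose value for the 7 members equals the union of annotated exons. A log scale uses RPKM + 0.1.

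Counts were fitted with edgeR 4.0.16 (filterByExpr, TMM, robust glmQLFit, intercept only) in R 4.3.3. Each quasi-dispersion was compared with its abundance trend on an F distribution (4 residual, 15.3 prior degrees of freedom), separately for the upper and the lower tail, with Benjamini-Hochberg adjustment over 14770 genes and a threshold of 0.05. Ranges and deviations use log2 CPM with a prior count of 2. The fit was tested on simulated counts of 14770 genes, some of them changed in part of the animals. It called 61.2% of genes changed 1.5-fold, 85.1% of those changed 2-fold and 98.5% of those changed 4-fold, with 7 false calls. The simulated dispersions followed the abundance trend alone, so genes with a spread of their own were not covered. limma 3.58.1 and DESeq2 1.42.0 served as alternatives, with other scalings, filters, pseudocounts and lengths, and each animal left out in turn. Within-animal ratios of 2 genes were tested by flipping signs in all 32 ways (exact, two-sided). Coding sequences were aligned with MAFFT 7.526.

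Named were the 7 members, 8 partner pairs, the highest and any called gene of each pathway list and the 5 genes nearest to a called member. Results of 1 gene are not reported here. Genes named outside this rule are marker genes and those said to be named after their values were seen. The members and lists were chosen with earlier results of these data known. Replicate numbers follow accession order and only name the animals. Poisson intervals and floors cover counting error only, because reads were not tagged by molecule as far as the labels say.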

Additional observations from a re-analysis of the deposited data

Results flagged for a closer look

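The log2 ratio of Gabrd over Gabra6 had 1 animal far from the others: the gap of animal 4 to its nearest neighbour was 0.910 of the whole range over the 5 animals, above the critical value of 0.71 for groups of 5. Gabra6 had 64 counts in animal 4 and 0 or 1 in the others, while Gabrd had 968 counts in animal 4 and 902 to 1130 in the others. Animal 4 was the deepest library, and in RPKM Gabrd was lowest there (21.6 against 23.3 to 29.4). Of 36 values examined in this way, 1 was marked, and chance marks about 1 in 20.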

How the results depend on the processing

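The number of genes more variable than the trend, 45, was 249 with no low-count filter, 19 without the robust option of edgeR, 101 as DESeq2 dispersion outliers, 10 with limma on recomputed RPKM and 27 with limma on deposited RPKM, and 18 to 44 without any 1 animal (18 without animal 5, 26 without animal 3). The number of members called, 1, was 3 with no low-count filter (Gabre, adjusted p = 0.00753, Gabrd, 0.0478, and Gabrq) and 0 without the robust option (Gabrq, edgeR adjusted p = 0.0545), with limma on recomputed RPKM (0.534) and on deposited RPKM (0.0515), and 0 to 1 without any 1 animal, with 0 without animal 2 or animal 5. Gabrq kept its call in 6 of 11 alternatives. For the fit with no low-count filter the share of all genes tested that were called is not given, so its 3 members have no background beside them.

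The log2 ratio to the trend turned negative for members that were not called: for Gabrb1 with limma on deposited RPKM (-2.57), for Gabrb2 with it (-1.56) and without animal 5 (-0.23, with 0.97 the highest when 1 animal was left out), and for Gabrg1 with DESeq2 (-0.21). For Gabrg3 it was -0.73 and -0.13 with limma on recomputed and deposited RPKM, -0.82 with DESeq2, and -0.95 and -0.23 without animals 1 and 3 (highest 0.62). For Gabrd it was -0.092 without animal 1 (highest 3.02).

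On library-scaled counts with no gene length the order turned for Gabrb2 over Gabrb1 (log2 ratio -0.57), Gabrd over Gabrb1 (-1.79), Gabrg1 over Gabrg3 (-0.59), Gabrb1 over Gabra2 (0.39) and Gabrd over Gabra4 (-0.79), as exon lengths then stay in the ratio. Gabrg1 over Gabrg3 also turned without animal 2 (-0.010) and without animal 5 (-0.024), with 0.056 the highest. Mean levels moved by less than 1 SD in all 63 alternatives, most of which could not have shown otherwise. Leaving out 1 of 5 animals cannot move a mean by 1 SD. The exon union equals the gene lengths used, so it left every mean unchanged. Only the deposited RPKM and the other library scalings could have moved them. The smallest p of 5 animals, 0.062, limits every pair, and counts of 22 to 72 limit Gabre. No paired analysis was possible because all samples form 1 group.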
